A study of Homo sapiens with 38 samples.

Results

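Homologous recombination and Fanconi anaemia genes are described here across growth states and hairpins in cultured human fibroblasts. The group is a list of 35 gene symbols that covers recombination, crosslink repair, the replication checkpoint and 1 mismatch repair gene. Of the 35, 32 were matched to a probe set on the array, and 18 passed the filter on low values, a log2 value above 5 on at least 2 arrays of experiment 1. The array as a whole gave 19775 genes with a probe set, of which 8511 passed the same filter and were tested. BRCA2, FANCA and FANCD2 were matched to no probe set used here and were not analysed here.

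Expression was measured on Affymetrix arrays in IMR90 cells, an established line of human lung fibroblasts. Every group carried either the empty MLP vector, called vector here, or a short hairpin RNA, an RNA that silences 1 gene. The hairpins shRB, shp107 and shp130 target RB, p107 and p130, the 3 pocket proteins that bind E2F transcription factors. The states were growing in 10% serum, quiescent in 0.1% serum (low serum), confluent, and senescent, where arrest followed expression of a ras oncogene. The confluent and senescent cells were in 10% serum, so their contrasts with low serum cells differ by serum as well. Experiment 1 held all 16 pairings of state and hairpin on 32 arrays, and experiment 2 held vector cells in the growing and senescent states and senescent cells with shRB on 6 arrays, with 2 arrays in each of the 19 groups. The senescent groups differ from the others by ras as well as by arrest, and neither the ras allele nor the time after its expression is given in the sources used here. The labels name 1 hairpin per target and do not say whether the arrays of a group came from separate cultures. P-values here therefore reflect array-to-array spread alone, which may be technical.

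Homologous recombination repairs broken DNA by copying the sister chromatid, and is used mainly in S and G2 phase. BRCA1, BARD1, PALB2 and BRCA2 act together early in this repair, after the broken ends are resected. In the Fanconi pathway, a core complex with the ubiquitin ligase FANCL and the conjugating enzyme UBE2T attaches ubiquitin to FANCI and FANCD2 at crosslinked DNA, and USP1 takes it off again. Many of these genes are known to be transcribed with the DNA replication genes under E2F, which RB represses when it is not phosphorylated.

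The deposited values are log2 expression values. Array medians lay between 3.27 and 3.41, so levels near these are close to background. Precision is set by the small number of arrays. RB1, which encodes RB, ranged from 9.14 to 9.86 on the 8 vector arrays of experiment 1 and from 3.64 to 6.45 on the 8 shRB arrays. In experiment 2 it lay between 9.07 and 10.00 on 4 vector arrays and at 6.64 and 7.08 on the shRB arrays. RBL2 (p130) lay between 4.64 and 5.86 on shp130 arrays against 7.48 to 8.47 on vector arrays, while RBL1 (p107) was near background with vector (3.24 to 4.65) and with shp107 (2.95 to 3.95), so these arrays hardly check that knockdown. All 12 fibroblast markers passed the filter (array means 9.22 to 11.2), no blood marker passed, and 1 of 9 epithelial markers (KRT18) and 2 of 7 endothelial markers (TEK and CLDN5) passed. The replicates of confluent vector cells were the farthest apart (r = 0.941 over genes, against 0.960 to 0.997 in the other groups). In bulk RNA, fewer cells that express a gene and less of its RNA per cell cannot be told apart.

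**Figure D1:**
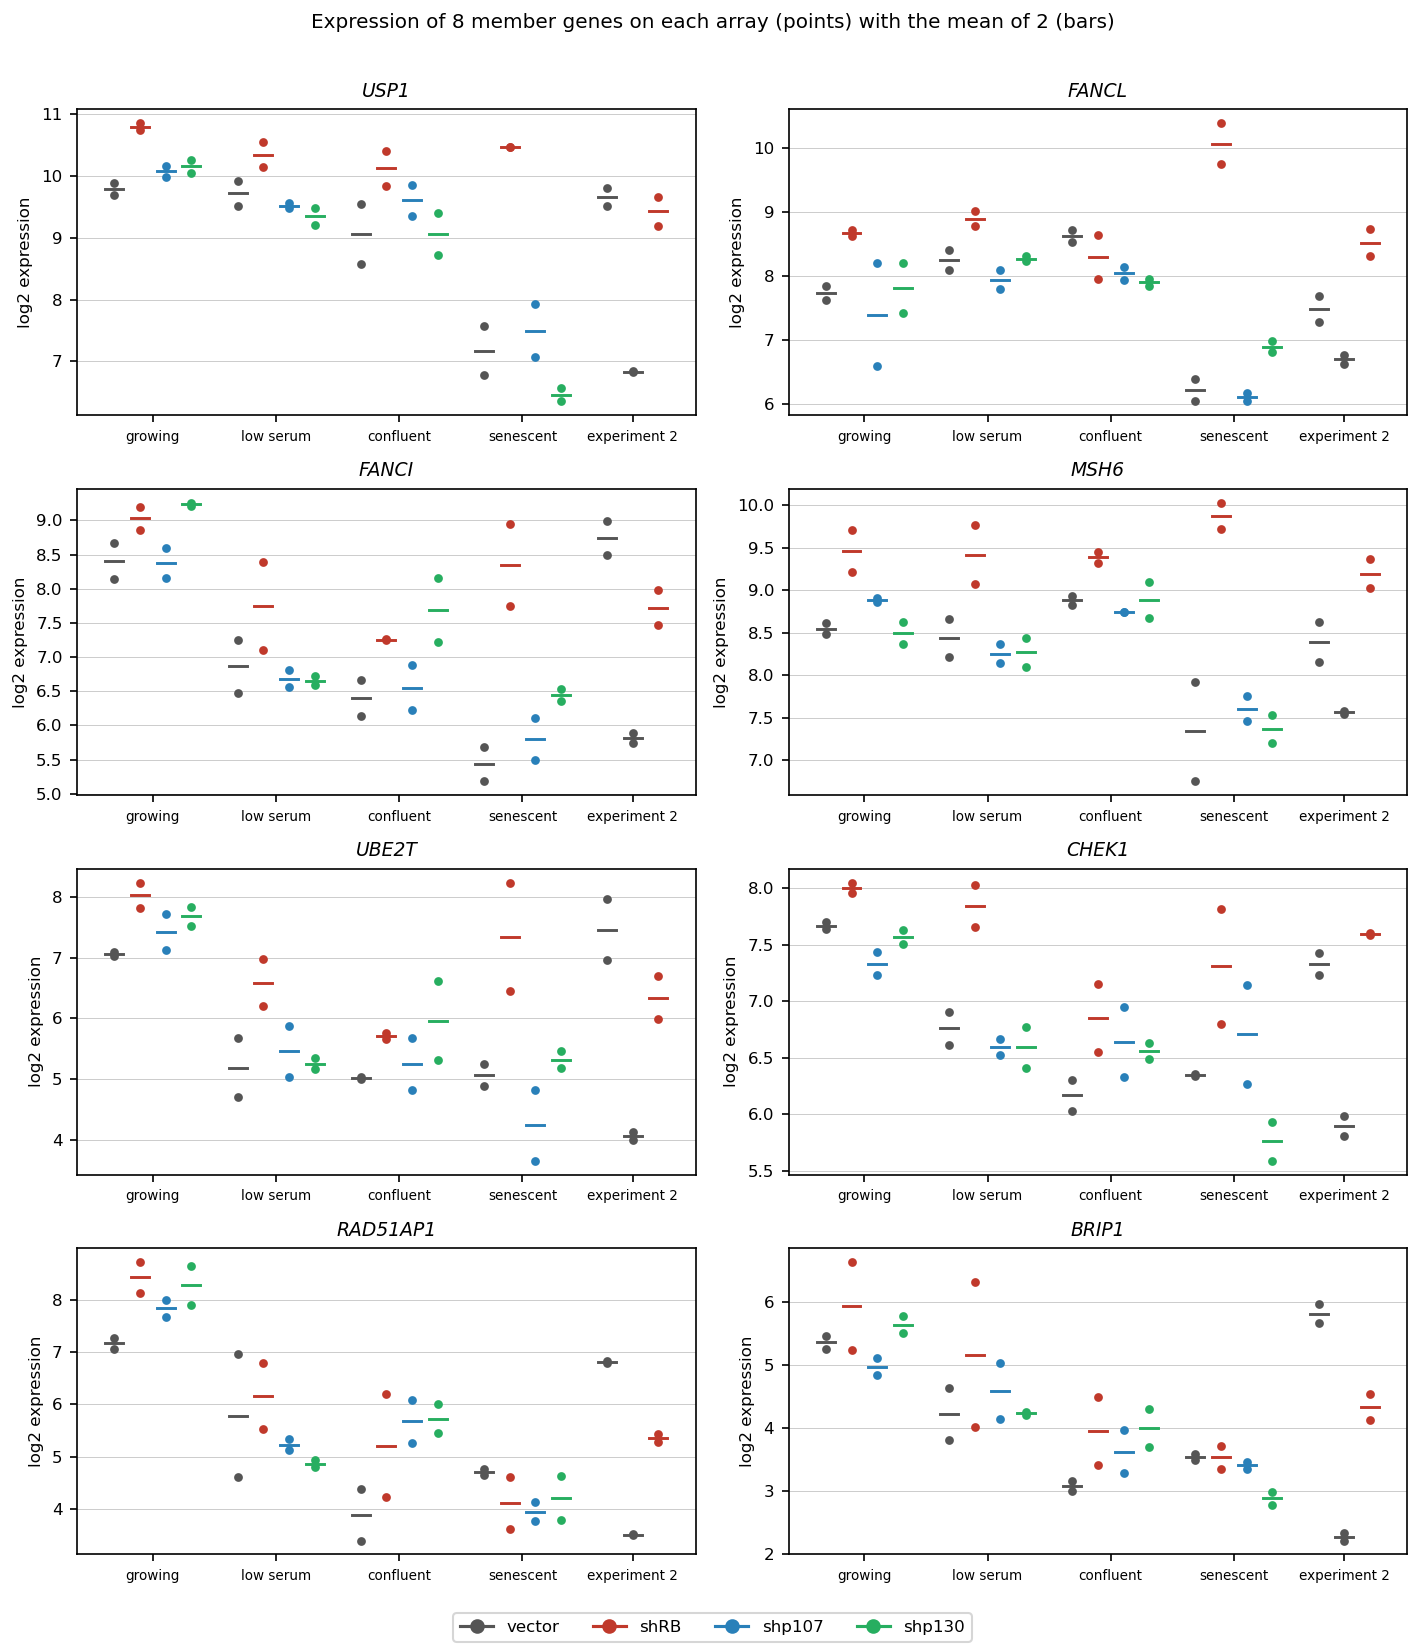
Log2 expression (y axis) of 8 member genes on each of the 38 arrays, grouped on the x axis by growth state, with experiment 2 at the right (growing vector, senescent vector, senescent shRB); points are arrays, bars are means of 2, and colours mark the hairpin. USP1, FANCL, FANCI, MSH6 and UBE2T were low in senescent cells with vector and high with shRB, while RAD51AP1 and BRIP1 stayed low in senescent shRB cells of experiment 1.

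The opening comparison asked how the members differed between growing and senescent cells that carried the empty vector. In experiment 1, 11 of the 18 tested members fell in senescent cells and none rose, with all 3 tested genes of the FANCI ubiquitin cycle among those that fell. Over all genes tested, 16.2% fell and 9.21% rose. The members' median change was -1.27 on the log2 scale, against -0.10 over all genes tested. BRIP1 and RAD51AP1, which fell, passed the filter on no senescent array, so for these a fall is favoured by the filter itself. Of the 18, 13 had an unadjusted p under 0.05 by limma, as did 3030 of the 8511 genes tested.

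FANCI, which is ubiquitinated together with FANCD2, read 8.14 and 8.67 on the growing vector arrays and 5.19 and 5.68 on the senescent ones. The groups did not overlap, and FANCI fell by 2.97 ± 0.42 (log2, SE, n = 2 against 2, limma adjusted p = 1.72e-05). USP1, the enzyme that removes ubiquitin from FANCI and FANCD2, read 9.88 and 9.69 in growing and 6.77 and 7.57 in senescent cells. It fell by 2.61 ± 0.33 (adjusted p = 5.04e-06), or 6.12-fold. UBE2T, the enzyme that passes ubiquitin to FANCL's targets, read 7.03 and 7.10 against 4.89 and 5.24, and fell by 2.00 ± 0.51 (adjusted p = 0.0058). FANCL, the ligase itself, fell by less, from 7.85 and 7.62 to 6.04 and 6.39, a change of -1.52 ± 0.36 (adjusted p = 0.00312). The senescent arrays lay below the growing arrays for each of these 4 genes.

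Among the recombination genes, RAD51AP1, which promotes strand invasion of a duplex, read 7.06 and 7.27 in growing and 4.77 and 4.65 in senescent cells. It fell by 2.46 ± 0.63 (adjusted p = 0.00604). BRIP1, a helicase that binds BRCA1, read 5.45 and 5.25 against 3.58 and 3.49, close to background in senescent cells, and fell by 1.82 ± 0.53 (adjusted p = 0.0146). RMI1, a subunit of the complex with BLM that resolves crossed strands, fell by 1.67 ± 0.60 (adjusted p = 0.0465). BARD1, the partner of BRCA1, was at -1.54 ± 0.58 (adjusted p = 0.0547) and did not pass, nor did RAD51C, which also acts in recombination, at -0.65 ± 0.34 (adjusted p = 0.179). PALB2, the link between BRCA1 and BRCA2, was at 0.12 ± 0.30 (adjusted p = 0.833).

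Of the 5 checkpoint genes tested, CHEK1, the kinase that ATR activates, read 7.64 and 7.71 in growing and 6.34 and 6.36 in senescent cells and fell by 1.32 ± 0.31 (adjusted p = 0.00273). RAD1, a subunit of the checkpoint clamp, read 9.87 and 9.64 against 8.60 and 8.62 and fell by 1.14 ± 0.21 (adjusted p = 0.000309). TOPBP1, which activates ATR, fell by 0.95 ± 0.33 (adjusted p = 0.0354), and was not called with no filter (adjusted p = 0.0634) or after quantile normalization (0.107). The upstream kinases did not pass: ATR was at 0.57 ± 0.40 (adjusted p = 0.321) and ATM at 0.68 ± 0.35 (adjusted p = 0.174). MSH6, which recognises base mismatches, read 8.61 and 8.49 against 6.75 and 7.92, with the senescent arrays well apart from each other, and fell by 1.21 ± 0.30 (adjusted p = 0.00452).

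With each of the 4 arrays left out in turn, 6 of the 11 calls were kept every time (FANCI, USP1, FANCL, RAD51AP1, CHEK1 and RAD1). BRIP1, RMI1 and TOPBP1 lost their calls whichever array was left out, with adjusted p of 0.0556 to 0.0822, 0.0727 to 0.248 and 0.108 to 0.136. With no filter RMI1 was not called either (adjusted p = 0.0977). Without senescent vector replicate 1, MSH6 was at -0.63 (adjusted p = 0.168) and UBE2T at -1.82 (adjusted p = 0.0556).

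Experiment 2 repeated this comparison with other arrays, and 15 of 18 members fell and none rose. Over all genes tested, 20.6% fell. The members' median was -1.52, against 0.01 over all genes. The members not called were PALB2 (-0.33 ± 0.20, adjusted p = 0.228), ATR (0.19 ± 0.24, adjusted p = 0.575) and ATM (0.35 ± 0.18, adjusted p = 0.148), so neither kinase passed in either experiment. Of the 12 fibroblast markers, 6 fell with senescence in experiment 1 and 11 in experiment 2, and none rose. DCN fell by 2.81 and 3.55, and COL3A1 by 2.21 and 4.19, in experiments 1 and 2. The part of these changes in the members' changes was not tested.

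BRIP1 read 5.66 and 5.96 in growing and 2.33 and 2.21 in senescent cells of experiment 2, and fell by 3.54 ± 0.20 (adjusted p = 4.06e-06). UBE2T went from 7.97 and 6.96 to 4.14 and 4.0 and fell by 3.39 ± 0.34 (adjusted p = 0.000104). RAD51AP1 went from 6.82 and 6.79 to 3.51 and 3.52 and fell by 3.29 ± 0.16 (adjusted p = 1.99e-06). The senescent arrays of BRIP1, RAD51AP1 and UBE2T lay at or near background. BARD1 (-2.88), RMI2 (-1.61), a small partner of RMI1, and FANCG (-1.82), a core complex subunit, were also close to or under the array medians in senescent cells. The sizes of these 6 falls therefore depend on the background and were not ranked. Farther from background, FANCI was at -2.92, USP1 at -2.83 and RMI1 at -2.21. The smallest called falls were those of MSH6 (-0.83 ± 0.21, adjusted p = 0.0146) and FANCL (-0.79 ± 0.22, adjusted p = 0.0197).

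In a fit over all 38 arrays, chosen after the values were seen, the change with senescence differed between experiments for no member at an adjusted p under 0.05. FANCG came nearest, with experiment 1 minus experiment 2 at 1.25 ± 0.33 (adjusted p = 0.0527), and 3 members had an unadjusted p under 0.05. Of the 8511 genes tested, 1120 had an unadjusted p under 0.05. Of the 15 calls in experiment 2, 11 were kept with any 1 array left out. FANCL lost its call in 1 fit over all arrays (adjusted p = 0.0835), without growing replicate 1 (0.0754), senescent vector replicate 1 (0.0864) or replicate 2 (0.144). MSH6 lost it without growing replicate 2 (0.0569), senescent vector replicate 1 (0.0879) or replicate 2 (0.101), RAD1 without senescent vector replicate 1 (0.0844) and RAD51C without senescent vector replicate 2 (0.0899).

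The promoters of 6 members with different behaviour are shown next, to set members that rose with shRB in senescent cells of experiment 1 beside members that were not called there: USP1, FANCL, UBE2T and MSH6 rose, and RAD51AP1 and BRIP1 were not called. Each is the RefSeq window of 250 bases before to 50 after a gene start (GRCh38.p14), 5′ to 3′ on the gene's strand, and the most upstream window where a gene has several. Capitals mark matches on either strand to the words searched, which were the E2F words TTTCCCGC, TTTCGCGC, TTTGGCGC and TTTGCCGC, the cell cycle homology region word TTTGAA with its variants spelled TTCGAA and, as the third, TTTAAA, and the CCAAT box.
USP1 promoter: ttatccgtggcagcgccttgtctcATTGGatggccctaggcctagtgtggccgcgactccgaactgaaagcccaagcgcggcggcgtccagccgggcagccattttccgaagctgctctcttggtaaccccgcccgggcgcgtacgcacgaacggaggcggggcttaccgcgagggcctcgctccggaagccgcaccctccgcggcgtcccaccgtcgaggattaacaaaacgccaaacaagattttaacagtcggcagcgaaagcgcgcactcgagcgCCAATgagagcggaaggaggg
FANCL promoter: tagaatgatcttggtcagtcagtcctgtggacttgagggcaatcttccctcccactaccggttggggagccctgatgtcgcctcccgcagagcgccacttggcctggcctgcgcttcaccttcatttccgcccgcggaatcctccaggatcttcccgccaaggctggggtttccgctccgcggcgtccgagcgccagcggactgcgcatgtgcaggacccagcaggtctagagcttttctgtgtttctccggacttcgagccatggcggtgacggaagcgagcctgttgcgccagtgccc
UBE2T promoter: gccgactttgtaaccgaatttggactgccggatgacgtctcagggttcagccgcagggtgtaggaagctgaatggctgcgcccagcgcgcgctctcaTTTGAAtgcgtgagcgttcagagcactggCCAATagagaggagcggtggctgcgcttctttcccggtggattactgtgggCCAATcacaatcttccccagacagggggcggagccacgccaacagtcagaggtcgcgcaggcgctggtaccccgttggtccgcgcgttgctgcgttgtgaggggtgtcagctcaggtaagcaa
MSH6 promoter: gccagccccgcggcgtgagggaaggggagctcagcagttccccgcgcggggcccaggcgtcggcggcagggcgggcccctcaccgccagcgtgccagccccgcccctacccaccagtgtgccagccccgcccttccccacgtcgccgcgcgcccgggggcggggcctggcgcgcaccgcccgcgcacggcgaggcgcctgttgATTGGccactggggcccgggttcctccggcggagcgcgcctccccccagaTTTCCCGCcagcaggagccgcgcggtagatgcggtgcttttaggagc
RAD51AP1 promoter: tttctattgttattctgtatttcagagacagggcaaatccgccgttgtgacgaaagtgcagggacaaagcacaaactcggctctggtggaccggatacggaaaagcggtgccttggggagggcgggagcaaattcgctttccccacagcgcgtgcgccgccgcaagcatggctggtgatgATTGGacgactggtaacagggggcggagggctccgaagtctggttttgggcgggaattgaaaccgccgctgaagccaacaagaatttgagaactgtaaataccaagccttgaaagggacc
BRIP1 promoter: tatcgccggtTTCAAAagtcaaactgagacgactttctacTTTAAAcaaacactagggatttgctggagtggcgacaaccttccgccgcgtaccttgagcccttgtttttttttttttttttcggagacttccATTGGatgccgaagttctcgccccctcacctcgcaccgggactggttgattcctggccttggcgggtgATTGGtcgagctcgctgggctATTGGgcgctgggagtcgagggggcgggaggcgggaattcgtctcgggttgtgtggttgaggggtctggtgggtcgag

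The windows lie at chr1:62436145-62436444 (plus strand) for USP1, chr2:58241276-58241575 (minus strand) for FANCL, chr1:202341887-202342186 (minus strand) for UBE2T, chr2:47782895-47783194 (plus strand) for MSH6, chr12:4538640-4538939 (plus strand) for RAD51AP1 and chr17:61863479-61863778 (minus strand) for BRIP1. The window of MSH6 held an E2F word on the plus strand and a CCAAT on the minus strand, and those of USP1 and RAD51AP1 held CCAAT only. UBE2T and BRIP1 held CCAAT and cell cycle homology region words, and FANCL held none of the words. No match says only that these letters are not in this window, and no word was in all 4 windows of the genes that rose. The matches did not overlap.

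Over the 45 RefSeq windows of members, 9 (20.0%) held an E2F word, against 3.31% of all 35116 windows. These belonged to CLSPN, EXO1, FANCA, FANCC, FANCD2, MSH6, RMI1, TOPBP1 and XRCC2, of which 3 were tested here, namely MSH6, RMI1 and TOPBP1. Among members tested the share was 3 of 25 windows (12.0%), against 4.87% over the windows of all genes tested. CCAAT was in 48.9% of member windows and 34.6% of all windows. The homology region words were in 15.6% of member windows and 25.1% of all. FANCI, RMI2 and RAD54B matched none of the windows searched.

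Next, quiescence in low serum and at confluence was compared with growth in vector cells, to see which members follow arrest without ras. These comparisons and the senescent one share the growing vector arrays of experiment 1. In low serum, 2 of 18 members fell, FANCI and UBE2T, and 2 rose, ATM and RAD1. Over all genes, 6.36% fell and 6.69% rose, and the members' median was 0.03, the same as over all genes tested.

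UBE2T read 4.70 and 5.68 in low serum and fell by 1.87 ± 0.51 (limma adjusted p = 0.0187). FANCI read 6.48 and 7.26 and fell by 1.54 ± 0.42 (adjusted p = 0.0187). RAD1 rose from 9.87 and 9.64 to 10.75 and 10.50, a change of 0.87 ± 0.21 (adjusted p = 0.00838). Its 4 other probe sets were at 0.70 to 1.02. RAD51AP1 read 4.61 and 6.96, so its 2 low serum arrays were far apart, and its change of -1.38 ± 0.63 did not pass (adjusted p = 0.153). USP1 (-0.07 ± 0.33, adjusted p = 0.92) and MSH6 (-0.11 ± 0.30, adjusted p = 0.848) were not called, and their low serum and growing arrays overlapped. None of the 4 calls was kept with every array left out. All 4 lost it without growing vector replicate 2 (adjusted p 0.1 to 0.179) and without low serum vector replicate 1 (0.109 to 0.236), and UBE2T and ATM also without growing vector replicate 1 (0.0783 and 0.0705).

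ATM, the kinase that responds to DNA breaks, read 5.98 and 5.84 in growing, 7.41 and 6.99 in low serum and 7.38 and 7.16 in confluent cells. It rose by 1.29 ± 0.35 in low serum (adjusted p = 0.0195) and by 1.36 ± 0.35 at confluence (adjusted p = 0.00747) by the probe set used. Another ATM probe set of similar level (6.64 against 6.75 averaged over arrays) was at -0.14 and 0.11, so the probe sets disagree. The rise at confluence was not called without growing vector replicate 2 (adjusted p = 0.0685).

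At confluence, 7 of 18 members fell and ATM alone rose. Over all genes, 14.5% fell and 10.5% rose, and the members' median was -0.57 against -0.05 over all genes tested. RAD51AP1 read 4.38 and 3.40, against 7.06 and 7.27 in growing cells, and fell by 3.27 ± 0.63 (adjusted p = 0.000702). BRIP1 read 3.16 and 2.99 and fell by 2.28 ± 0.53 (adjusted p = 0.00341), to background. It passed the filter on 7 growing arrays and on no confluent array, so its fall is favoured by the filter itself. UBE2T, at 5.04 and 5.01, fell by 2.04 ± 0.51 (adjusted p = 0.00566). The confluent arrays of these 3 genes were all below the growing ones. FANCI fell by 2.00 ± 0.42 (adjusted p = 0.00146), CHEK1 by 1.5 ± 0.31 (adjusted p = 0.00115), BARD1 by 1.84 ± 0.58 (adjusted p = 0.0234) and RAD51C by 1.07 ± 0.34 (adjusted p = 0.0238). BARD1 and RAD51C lost their calls whichever of the 4 arrays was left out (adjusted p 0.0549 to 0.151 and 0.0587 to 0.126).

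The arrested states were also compared with each other. Between confluent and low serum cells, 4 members were lower at confluence: BARD1 (-2.07 ± 0.58, adjusted p = 0.0132), RAD51AP1 (-1.89 ± 0.63, adjusted p = 0.0357), RAD51C (-1.53 ± 0.34, adjusted p = 0.00221) and RAD1 (-0.73 ± 0.21, adjusted p = 0.0152). Over all genes, 13.0% were lower. This contrast was added after the values were seen. Without low serum vector replicate 2, BARD1 (-1.41, adjusted p = 0.207) and RAD51AP1 (-0.72, adjusted p = 0.56) were not called. BARD1 was also lost without confluent vector replicate 1 (0.0736), RAD51AP1 without confluent vector replicate 2 (0.211), and RAD1 without low serum replicate 1 (0.123) or confluent replicate 2 (0.124).

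Senescent vector cells were lower than low serum vector cells in 9 of 18 members (23.8% over all genes) and lower than confluent vector cells in 5 (18.8% over all genes). The members lower than in both states were USP1, FANCL, MSH6, RAD1 and TOPBP1. With each gene's probe sets averaged, MSH6 (-0.35, limma adjusted p = 0.0564) and FANCI (-0.48, 0.112) were not called against low serum cells. With no filter RMI1 was not called there (0.0699). Against confluent cells FANCL was at -2.41 ± 0.36 (adjusted p = 3.29e-05), USP1 at -1.89 ± 0.33 (adjusted p = 0.000189), MSH6 at -1.54 ± 0.30 (adjusted p = 0.000492) and RAD1 at -1.29 ± 0.21 (adjusted p = 8.49e-05). FANCL illustrates this, since it read 8.40 and 8.09 in low serum, 8.52 and 8.71 at confluence and 6.04 and 6.39 in senescent cells. By contrast UBE2T (0.04 ± 0.51, adjusted p = 0.963), CHEK1 (0.18 ± 0.31, adjusted p = 0.699) and BRIP1 (0.46 ± 0.53, adjusted p = 0.549) were not called between senescent and confluent cells. TOPBP1 lost its call against confluent cells whichever array was left out (adjusted p 0.0524 to 0.0728). Against low serum cells, without senescent vector replicate 1, BARD1, RAD51C, RMI1, FANCI and MSH6 were not called (adjusted p 0.0965 to 0.217). Against low serum, BARD1 and FANCI were lost without low serum replicate 2 as well (0.226 and 0.123), RAD51C and MSH6 without low serum replicate 1 (0.113 and 0.0845), and RMI1 without any 1 array (0.0509 to 0.207).

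**Figure D2:**
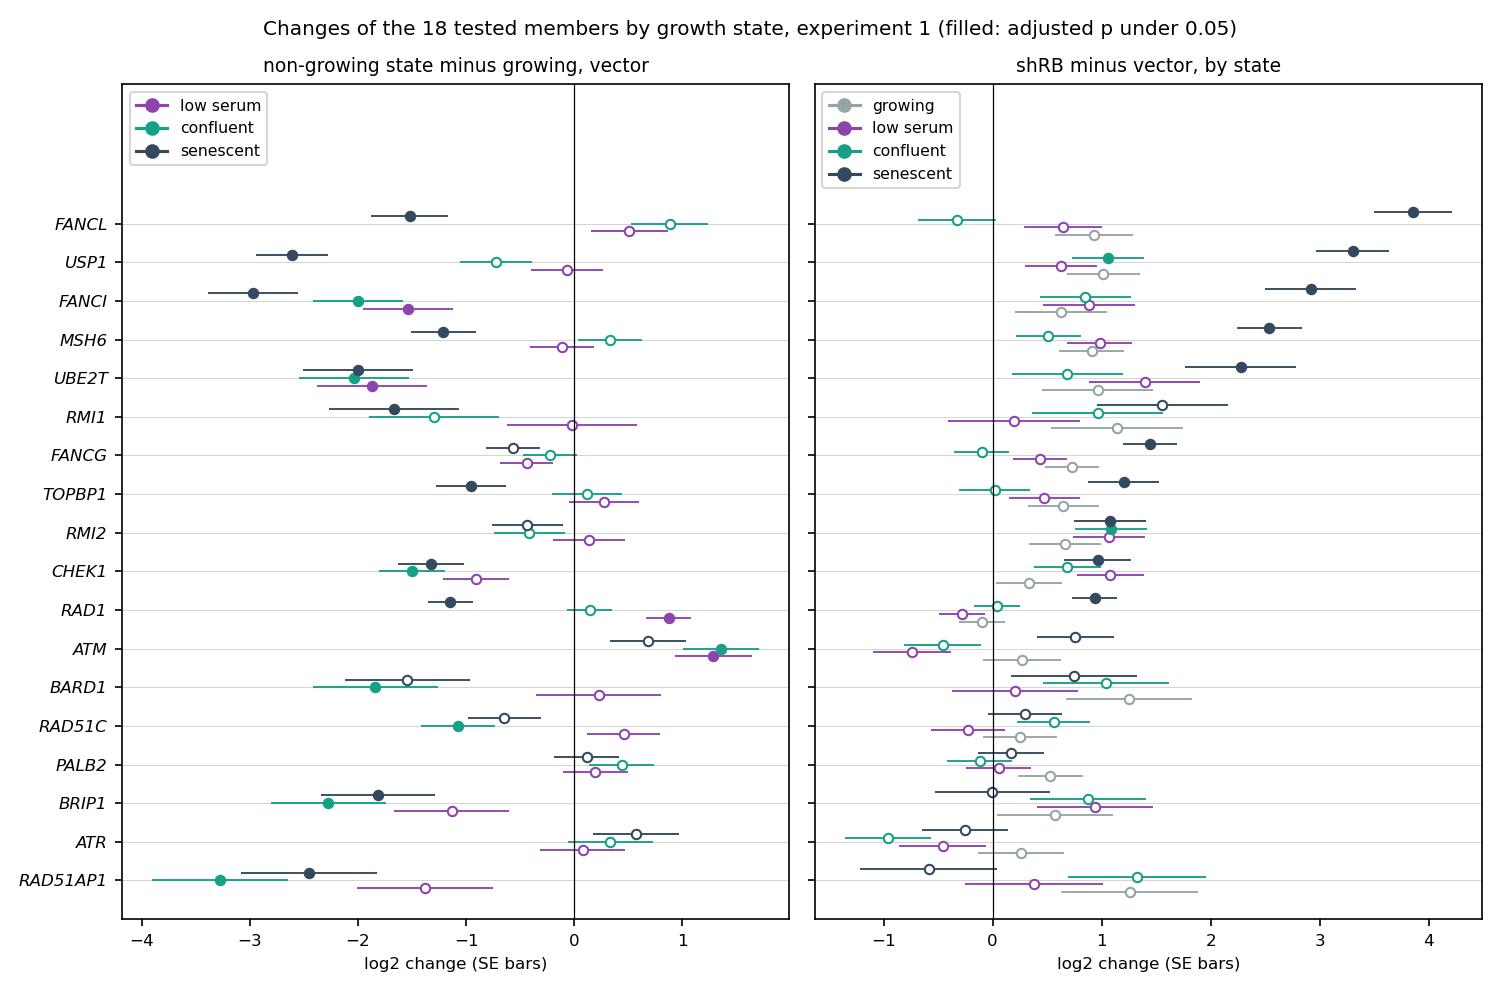
Log2 change (x axis, bars are SE) of each of the 18 tested members (y axis) in experiment 1, for each arrested state minus growing in vector cells (left) and for shRB minus vector in each state (right); filled points have an adjusted p under 0.05. At left, USP1, FANCL and MSH6 are filled in the senescent state and open in low serum and at confluence, and at right the senescent points reach 3.85 for FANCL.

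The effect of the RB hairpin was then measured within each state. In senescent cells of experiment 1, 10 of 18 members were higher with shRB than with vector and none was lower. Over all genes, 5.98% were higher and 3.77% lower. The members' median was 1.02, against -0.02 over all genes tested. FANCG and RMI2 passed the filter only on shRB arrays, 4 and 2 of them, so a rise with shRB is favoured by the filter itself. Without these, 8 of 16 members were higher, with a median of 0.95. In the same cells the endothelial marker CLDN5 rose by 3.17 ± 0.27 (adjusted p = 5.96e-08), TEK was not called, and of 12 fibroblast markers LUM fell by 1.51 ± 0.38 (adjusted p = 0.0136) and none rose. The part of these markers in the members' changes was not tested.

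FANCL read 10.38 and 9.74 with shRB, against 6.04 and 6.39 with vector, and rose by 3.85 ± 0.36 (limma adjusted p = 2.01e-07), or 14.4-fold. USP1 read 10.47 and 10.48 against 6.77 and 7.57 and rose by 3.3 ± 0.33 (adjusted p = 7.28e-07), or 9.86-fold. FANCI read 8.95 and 7.75 against 5.19 and 5.68 and rose by 2.92 ± 0.42 (adjusted p = 6.87e-05). In each of these 3 genes both shRB arrays lay above both vector arrays by over 1 log2 unit. UBE2T read 8.23 and 6.45 against 4.89 and 5.24 and rose by 2.27 ± 0.51 (adjusted p = 0.00551), with its shRB arrays well apart. Thus FANCI, which receives the ubiquitin of the pathway, and FANCL, UBE2T and USP1, which attach or remove it, all rose, by 4.84-fold to 14.4-fold.

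MSH6 read 9.72 and 10.03 with shRB against 6.75 and 7.92, and rose by 2.54 ± 0.30 (adjusted p = 6.7e-06). Its other probe set near the filter was at 1.12. FANCG read 5.28 and 5.41 against 3.72 and 4.09, near background, and rose by 1.44 ± 0.25 (adjusted p = 0.000532). TOPBP1 rose by 1.20 ± 0.33 (adjusted p = 0.0199), CHEK1 by 0.96 ± 0.31 (adjusted p = 0.0494) and RAD1 by 0.94 ± 0.21 (adjusted p = 0.00536). RMI2 was at 1.07 ± 0.33 (adjusted p = 0.0422), and it was not called with no filter (adjusted p = 0.0701), nor was CHEK1 (0.0786).

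The members with roles in the BRCA1 group and in strand invasion did not pass in this experiment. RAD51AP1 read 4.62 and 3.62 with shRB against 4.77 and 4.65 with vector, a change of -0.59 ± 0.63 (adjusted p = 0.675). BRIP1 read 3.72 and 3.35 against 3.58 and 3.49, and its change was -0.00 ± 0.53 (adjusted p = 0.999). BARD1 was at 0.75 ± 0.58 (adjusted p = 0.509), PALB2 at 0.17 ± 0.30 (adjusted p = 0.821) and RAD51C at 0.30 ± 0.34 (adjusted p = 0.698). RMI1 was at 1.56 ± 0.60 (adjusted p = 0.121).

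FANCL, USP1, FANCI, MSH6 and FANCG kept their calls with any 1 array left out. Without senescent shRB replicate 1, the array with the higher UBE2T, CHEK1, RMI2 and RAD1, these 4 were not called (UBE2T 1.38, adjusted p = 0.147; CHEK1 0.45, 0.52; RMI2 0.67, 0.376; RAD1 0.78, 0.076). TOPBP1 was not called without any 1 of the 4 arrays (adjusted p 0.0514 to 0.147). UBE2T was also lost without senescent vector replicate 1 (0.0521), CHEK1 without either vector array (0.168 and 0.188) and RMI2 without vector replicate 2 (0.393).

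In experiment 2, 14 of 18 members were higher with shRB than with vector in senescent cells and none was lower. Over all genes, 10.9% were higher. The members' median was 1.67, against -0.05 over all genes. Without FANCG and RMI2, 12 of 16 were higher. CLDN5 rose here by 1.64 ± 0.17 (adjusted p = 0.000664) and TEK by 0.99 ± 0.24 (adjusted p = 0.0254), and 3 fibroblast markers rose and 1 fell. Here the strand invasion genes were among those that rose: RAD51AP1 read 5.27 and 5.43 with shRB against 3.51 and 3.52 and rose by 1.84 ± 0.16 (adjusted p = 0.000388). BRIP1 read 4.12 and 4.54 against 2.33 and 2.21 and rose by 2.06 ± 0.20 (adjusted p = 0.000624). BARD1 read 5.58 and 5.76 against 3.65 and 3.77 and rose by 1.96 ± 0.19 (adjusted p = 0.000509). The shRB arrays of all 3 lay above the vector arrays. In 1 fit over all arrays RAD51AP1 (adjusted p = 0.0531) and PALB2 (0.0511) were not called.

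USP1 again read high with shRB, 9.20 and 9.66 against 6.84 and 6.82, and rose by 2.6 ± 0.21 (adjusted p = 0.000287), the largest rise among the members in experiment 2. UBE2T rose by 2.27 ± 0.34 (adjusted p = 0.00387), the same estimate as in experiment 1 to 2 decimals. FANCL read 8.72 and 8.30 against 6.76 and 6.63 and rose by 1.82 ± 0.22 (adjusted p = 0.00134), or 3.52-fold. Those not called were ATM (-0.42 ± 0.18, adjusted p = 0.123), ATR (0.10 ± 0.24, adjusted p = 0.789), RAD51C (0.50 ± 0.24, adjusted p = 0.172) and RAD1 (0.66 ± 0.22, adjusted p = 0.0711). With an array left out, 12 of 14 calls were kept every time. FANCG was lost without senescent vector replicate 1 (adjusted p = 0.0927) or 2 (0.079), and PALB2, at 0.91 ± 0.20 with all arrays, without senescent vector replicate 1 (0.153) or 2 (0.122) or senescent shRB replicate 2 (0.0798).

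Whether the shRB effect in senescent cells differed between experiments was tested in the fit over all 38 arrays, which was chosen after the values were seen. Only FANCL differed, with experiment 1 minus experiment 2 at 2.03 ± 0.49 (adjusted p = 0.0378), and the effect was positive in both. RAD51AP1 (-2.42 ± 0.83) and BRIP1 (-2.06 ± 0.71) had the largest differences the other way, each with an adjusted p of 0.167. A difference between experiments was therefore not shown for these 2 genes. RB1 itself was less reduced on the shRB arrays of experiment 2 than of experiment 1, and its part in the differences was not tested.

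**Figure D3:**
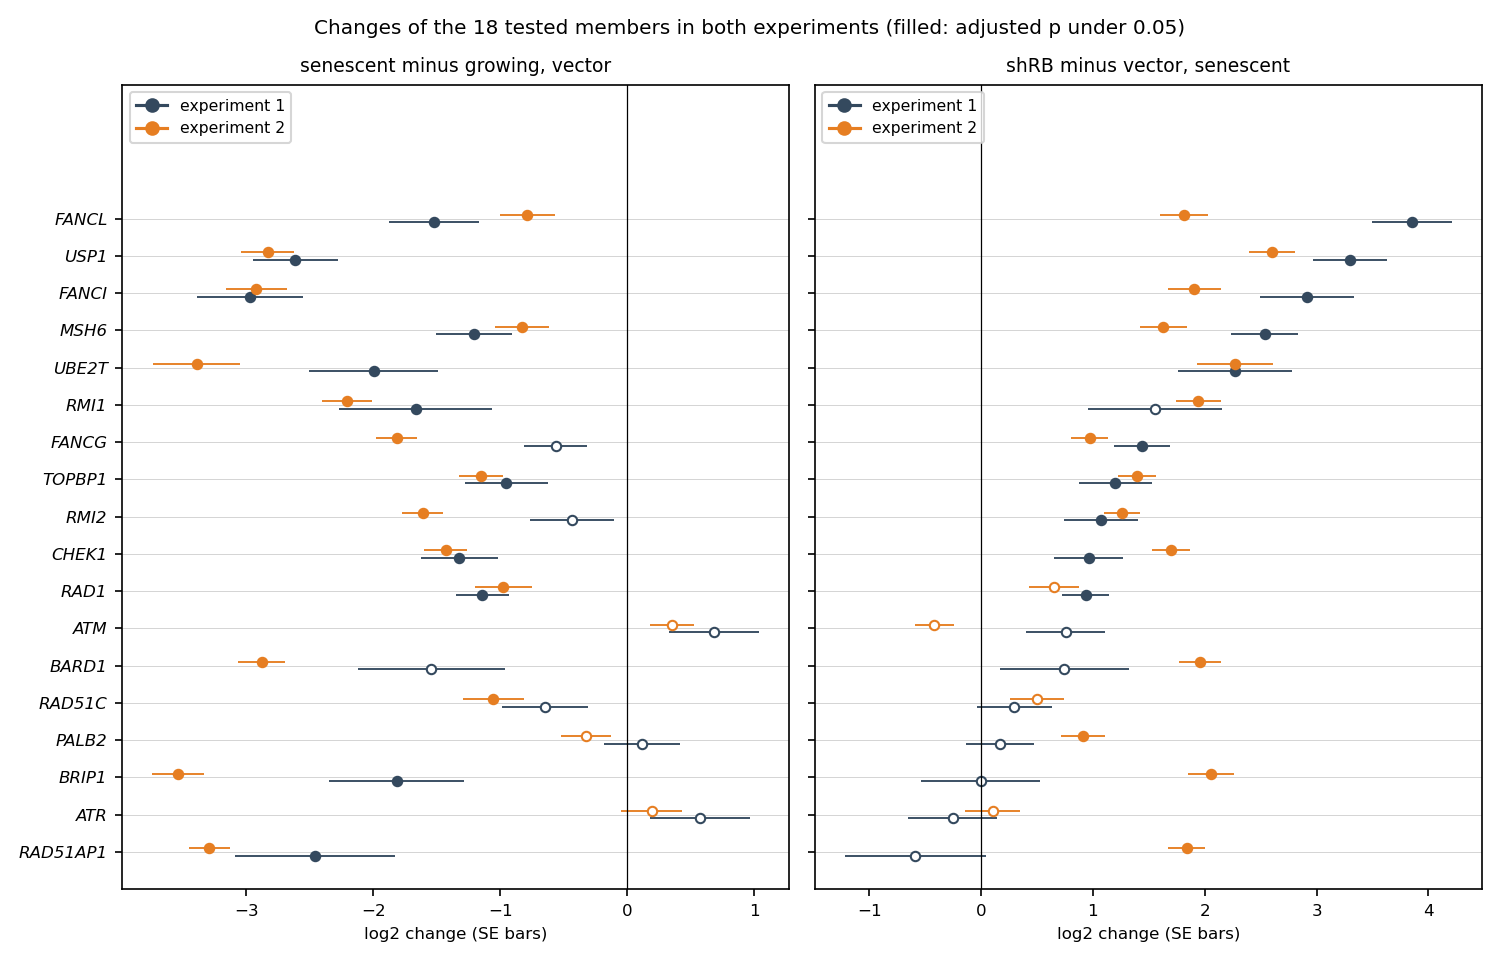
Log2 change (x axis, bars are SE) of each of the 18 tested members (y axis) for senescent minus growing vector cells (left) and shRB minus vector in senescent cells (right), in experiment 1 (dark) and experiment 2 (orange); filled points have an adjusted p under 0.05. BRIP1 and RAD51AP1 lie at -0.00 and -0.59 in experiment 1 and at 2.06 and 1.84 in experiment 2 at right, while ATR is open throughout.

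In the other 3 states the RB hairpin moved few members past the threshold. In growing cells none of the 18 was called by limma. The members' median was 0.66, against 0.02 over all genes tested, and 5 had an unadjusted p under 0.05. Over all genes, 0.0822% were higher, and 537 of 8511 had an unadjusted p under 0.05. USP1 read 10.75 and 10.86 with shRB against 9.88 and 9.69, at 1.02 ± 0.33 (adjusted p = 0.368). RAD51AP1 read 8.13 and 8.71 against 7.06 and 7.27, at 1.26 ± 0.63 (adjusted p = 0.817). Neither difference passed the adjustment over all genes.

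In low serum again none was called by limma, with a median of 0.46, against -0.04 over all genes tested. Of the members 6 had an unadjusted p under 0.05, and 0.0587% of all genes were higher. An unadjusted p under 0.05 was found for 704 of the 8511 genes tested. UBE2T had the largest estimate, at 6.20 and 6.97 against 4.70 and 5.68 (1.39 ± 0.51, adjusted p = 0.421), and CHEK1 followed at 7.65 and 8.03 against 6.91 and 6.61 (1.08 ± 0.31, adjusted p = 0.255). At confluence 2 members were called higher, USP1 (1.06 ± 0.33, adjusted p = 0.0311) and RMI2 (1.09 ± 0.33, adjusted p = 0.0263), and 7.00% of all genes were higher. RMI2 read 4.61 and 4.73 against 3.36 and 3.80, all under the filter value, which it passed on shRB arrays of other states, and without FANCG and RMI2 the count was 1 of 16. USP1 was not called with no filter (adjusted p = 0.0546). USP1 read 9.84 and 10.41 against 9.55 and 8.58, and lost its call without confluent vector replicate 2 (0.57, adjusted p = 0.299) or confluent shRB replicate 2 (0.78, 0.229). RMI2 lost it without confluent vector replicate 1 (0.87, 0.206) or either shRB array (0.0956 and 0.114).

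The difference of the shRB effect between senescent cells and each other state was tested directly, and the 3 tests share the senescent arrays. Relative to growing cells the effect was larger in senescent cells for FANCL (2.92 ± 0.50, adjusted p = 0.00225), FANCI (2.29 ± 0.59, adjusted p = 0.0471), USP1 (2.29 ± 0.47, adjusted p = 0.0105) and MSH6 (1.63 ± 0.42, adjusted p = 0.0477), and 1.34% of all genes were called in that direction. Relative to low serum it was larger for FANCL (3.21 ± 0.50, adjusted p = 0.000907), USP1 (2.67 ± 0.47, adjusted p = 0.0026) and RAD1 (1.22 ± 0.30, adjusted p = 0.034), with 1.26% of all genes. Relative to confluence it was larger for 6 members, FANCL (4.18 ± 0.50), USP1 (2.24 ± 0.47), FANCI (2.07 ± 0.59), MSH6 (2.03 ± 0.42), FANCG (1.54 ± 0.35) and RAD1 (0.90 ± 0.30), with 8.34% of all genes, or 5 of 16 without FANCG and RMI2. No member was called in the opposite direction by limma. FANCL and USP1 were called in all 3 tests.

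FANCL kept its call in all 3 tests with any 1 array left out. Against growing cells, the call of USP1 ended on leaving out growing vector replicate 1 (adjusted p = 0.0555) or senescent vector replicate 1 (0.064). FANCI was lost on leaving out each of 7 of the 8 arrays in turn (all but senescent shRB replicate 2, 0.0829 to 0.232). MSH6 was also lost for 7 (all but senescent vector replicate 2, 0.0612 to 0.241), with the lowest difference, 1.04, without senescent vector replicate 1. Against low serum, RAD1 was lost for 6 arrays (all but low serum vector replicate 2 and senescent shRB replicate 2, 0.0606 to 0.156). Against confluence, FANCI was lost for 5 (both confluent shRB arrays, confluent vector replicate 2, senescent shRB replicate 1 and senescent vector replicate 1, 0.0531 to 0.138). RAD1 was lost there for 6 (all but confluent vector replicate 2 and senescent shRB replicate 2, 0.0567 to 0.179). With each gene's probe sets averaged, the difference against growing cells was 0.37 for MSH6 and 1.05 for FANCI, and neither was called (adjusted p = 0.488 and 0.14). RAD1 was then at 0.74 against low serum (adjusted p = 0.127) and at 0.29 against confluence (0.429), and FANCI at 0.93 against confluence (0.0645), none of them called. With no filter FANCI (0.093) and MSH6 (0.0802) against growing cells and RAD1 (0.0534) against confluence were not called. The other probe sets of RAD1 passed the filter. The other probe sets of FANCI were under the filter, as were 2 of the 3 others of MSH6.

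The hairpins against p107 and p130 were compared with vector in the same way, with the same vector arrays. No member was called with shp107 in any state by limma, with 0, 0, 3 and 2 members at an unadjusted p under 0.05 in the growing, low serum, confluent and senescent states. In the same order, 117, 354, 2171 and 1850 of the 8511 genes tested had an unadjusted p under 0.05. Over all genes, 13.5% were called in either direction at confluence and 7.84% in senescent cells. RAD51AP1 came nearest at confluence, at 5.27 and 6.08 against 4.38 and 3.40 (1.78 ± 0.63, adjusted p = 0.0669).

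With shp130, RAD1 alone was called, in senescent cells, at 9.24 and 9.71 against 8.60 and 8.62 (0.87 ± 0.21, adjusted p = 0.0349), where 0.775% of all genes were higher. It lost the call without senescent vector replicate 1 (0.166) or 2 (0.171) or senescent shp130 replicate 2 (0.63, 0.377), and was at 0.34 (adjusted p = 0.385) with its probe sets averaged. No member was called in the other states, with 1, 0 and 2 at an unadjusted p under 0.05 in growing, low serum and confluent cells. Among the 8511 genes tested, 379, 471 and 456 had an unadjusted p under 0.05, in the same order. FANCI read 6.54 and 6.36 in senescent shp130 cells against 5.19 and 5.68 with vector, at 1.02 ± 0.42 (adjusted p = 0.298).

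Set directly against the other hairpins in senescent cells, shRB was higher than shp107 in 8 of 18 members (11.6% over all genes) and higher than shp130 in 10 (7.87% over all genes). Without FANCG and RMI2 these were 6 and 8 of 16. FANCL, USP1, FANCI, UBE2T, MSH6, FANCG and RMI2 were in both counts. FANCL read 6.17 and 6.04 with shp107 and 6.81 and 6.98 with shp130, against 10.38 and 9.74 with shRB. The differences were 3.96 ± 0.36 (adjusted p = 2.02e-07) and 3.17 ± 0.36 (adjusted p = 2.81e-06). USP1 read 7.07 and 7.92 with shp107 and 6.35 and 6.57 with shp130, and differed from shRB by 2.98 ± 0.33 (adjusted p = 3.48e-06) and 4.02 ± 0.33 (adjusted p = 3.27e-08). RAD51C (1.11 ± 0.34, adjusted p = 0.023) was called against shp107 only, and RMI1, CHEK1 and TOPBP1 against shp130 only; whether these differ between the 2 hairpins was not tested. Without senescent shRB replicate 1, RAD51C (0.137) and RMI2 (0.208) were lost against shp107, and RMI1, RMI2, FANCI, CHEK1 and UBE2T against shp130 (0.066 to 0.257). Without senescent shp107 replicate 2, RAD51C (0.47, adjusted p = 0.488) and RMI2 (0.282) were lost. Against shp130, TOPBP1 was lost without senescent shRB replicate 2 (0.0638), and without senescent shp130 replicate 1 RMI1 (0.154), RMI2 (0.0527), TOPBP1 (0.137) and UBE2T (0.0895) were lost, as was RMI2 without senescent shp130 replicate 2 (0.102).

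The levels of the members in senescent shRB cells were also compared with those in growing vector cells. In experiment 1, 4 members were higher than in growing cells (12.2% of all genes): FANCL (2.33 ± 0.36, adjusted p = 3.36e-05), ATM (1.44 ± 0.35, adjusted p = 0.0036), MSH6 (1.33 ± 0.30, adjusted p = 0.00177) and FANCG (0.88 ± 0.25, adjusted p = 0.01). FANCG passed the filter only on shRB arrays, so a rise here is favoured by the filter itself. Another ATM probe set of similar level was at -0.30 in senescent against growing vector cells, where the one used was at 0.68. With shRB against vector in senescent cells these probe sets were at 0.90 and 0.76. The contrast here is the sum of those changes, so both probe sets were above 0 in it. Lower were 2, RAD51AP1 (-3.04 ± 0.63, adjusted p = 0.000831) and BRIP1 (-1.82 ± 0.53, adjusted p = 0.012), where 18.5% of all genes were lower. Both passed the filter on no senescent array, so a fall is favoured by the filter. FANCI (-0.06 ± 0.42, adjusted p = 0.937) and UBE2T (0.28 ± 0.51, adjusted p = 0.723) were not called, and their arrays overlapped. Without senescent shRB replicate 2, FANCG (adjusted p = 0.0703), BRIP1 (0.0857) and ATM (0.0503) were lost. FANCG was also lost without growing vector replicate 2 (0.0811) and BRIP1 without growing vector replicate 1 (0.0684).

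In experiment 2, FANCL (1.03 ± 0.22, adjusted p = 0.00705) and MSH6 (0.80 ± 0.21, adjusted p = 0.0199) were again above the growing level, where 15.0% of all genes were. Below it were 6 members, where 18.4% of all genes were: BRIP1 (-1.48 ± 0.20), RAD51AP1 (-1.45 ± 0.16), UBE2T (-1.12 ± 0.34), FANCI (-1.02 ± 0.24), BARD1 (-0.92 ± 0.19) and FANCG (-0.85 ± 0.16), with adjusted p of 0.000251 to 0.0348. FANCL and MSH6 were called above, and RAD51AP1 and BRIP1 below, the growing level in both experiments. In 1 fit over all arrays, however, RAD51AP1 (adjusted p = 0.0717), FANCI (0.0667), UBE2T (0.109) and BARD1 (0.227) were not called in experiment 2. MSH6 was lost without growing replicate 1 (0.0726) or senescent shRB replicate 2 (0.0997), UBE2T without the same arrays (-0.62, 0.14, and -0.77, 0.177), and FANCI without senescent shRB replicate 1 (0.0658).

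Within shRB cells of experiment 1, the state changes were as follows. In low serum 1 member was lower than in growing shRB cells, RAD51AP1 (-2.26 ± 0.63, adjusted p = 0.0345), where 3.54% of all genes were lower. At confluence 7 were lower, where 8.04% of all genes were: RAD51AP1 (-3.21 ± 0.63), UBE2T (-2.32 ± 0.51), BARD1 (-2.05 ± 0.58), BRIP1 (-1.97 ± 0.53), FANCI (-1.78 ± 0.42), CHEK1 (-1.15 ± 0.31) and FANCG (-1.05 ± 0.25). FANCG and BRIP1 passed the filter on no confluent array, so for these a fall is favoured by the filter. In senescent shRB cells 3 were lower (20.4% of all genes), RAD51AP1 (-4.30 ± 0.63, adjusted p = 1.74e-05), BRIP1 (-2.39 ± 0.53, adjusted p = 0.0014) and BARD1 (-2.05 ± 0.58, adjusted p = 0.00902), and 2 were higher (12.4% of all genes), FANCL (1.4 ± 0.36, adjusted p = 0.00446) and ATM (1.17 ± 0.35, adjusted p = 0.0141). RAD51AP1 and BRIP1 passed the filter on no senescent array, and the ATM probe sets disagreed in other contrasts, as given above. The calls of RAD51AP1 and BRIP1 in senescent shRB cells were kept with any 1 array left out. BARD1 there was lost without growing shRB replicate 2 (0.146) or senescent shRB replicate 2 (0.0793), FANCL without senescent shRB replicate 1 (1.08, 0.0696), and ATM without growing shRB replicate 1 (0.159) or senescent shRB replicate 2 (0.126). RAD51AP1 in low serum was lost without 3 of the 4 arrays (both growing shRB arrays and low serum shRB replicate 1, 0.114 to 0.27). Of the 7 at confluence, none was kept with every array left out, and all 7 were lost without confluent shRB replicate 1 (0.053 to 0.247).

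The levels of the members were set beside 2 marker lists. The proliferation list holds genes of G2 phase and mitosis such as MKI67, and the S phase list holds replication genes such as the MCM helicase subunits. In senescent vector cells 18 of 18 proliferation markers and 15 of 16 S phase markers were lower than in growing cells. With shRB in senescent cells of experiment 1, none of the 18 proliferation markers was called (median -0.11), while 12 of 16 S phase markers were higher (median 2.19). In experiment 2, 9 of 18 proliferation markers were higher. The mean of the proliferation markers was 4.61 and 4.56 on the senescent shRB arrays of experiment 1 and 4.49 and 4.69 with vector, and the groups overlapped. The S phase mean was 8.45 and 7.91 with shRB against 5.83 and 6.0. In experiment 2 the proliferation mean was 4.75 and 4.72 with shRB against 4.09 and 4.0. The part of cell cycle position in the members' changes was not tested.

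**Figure D4:**
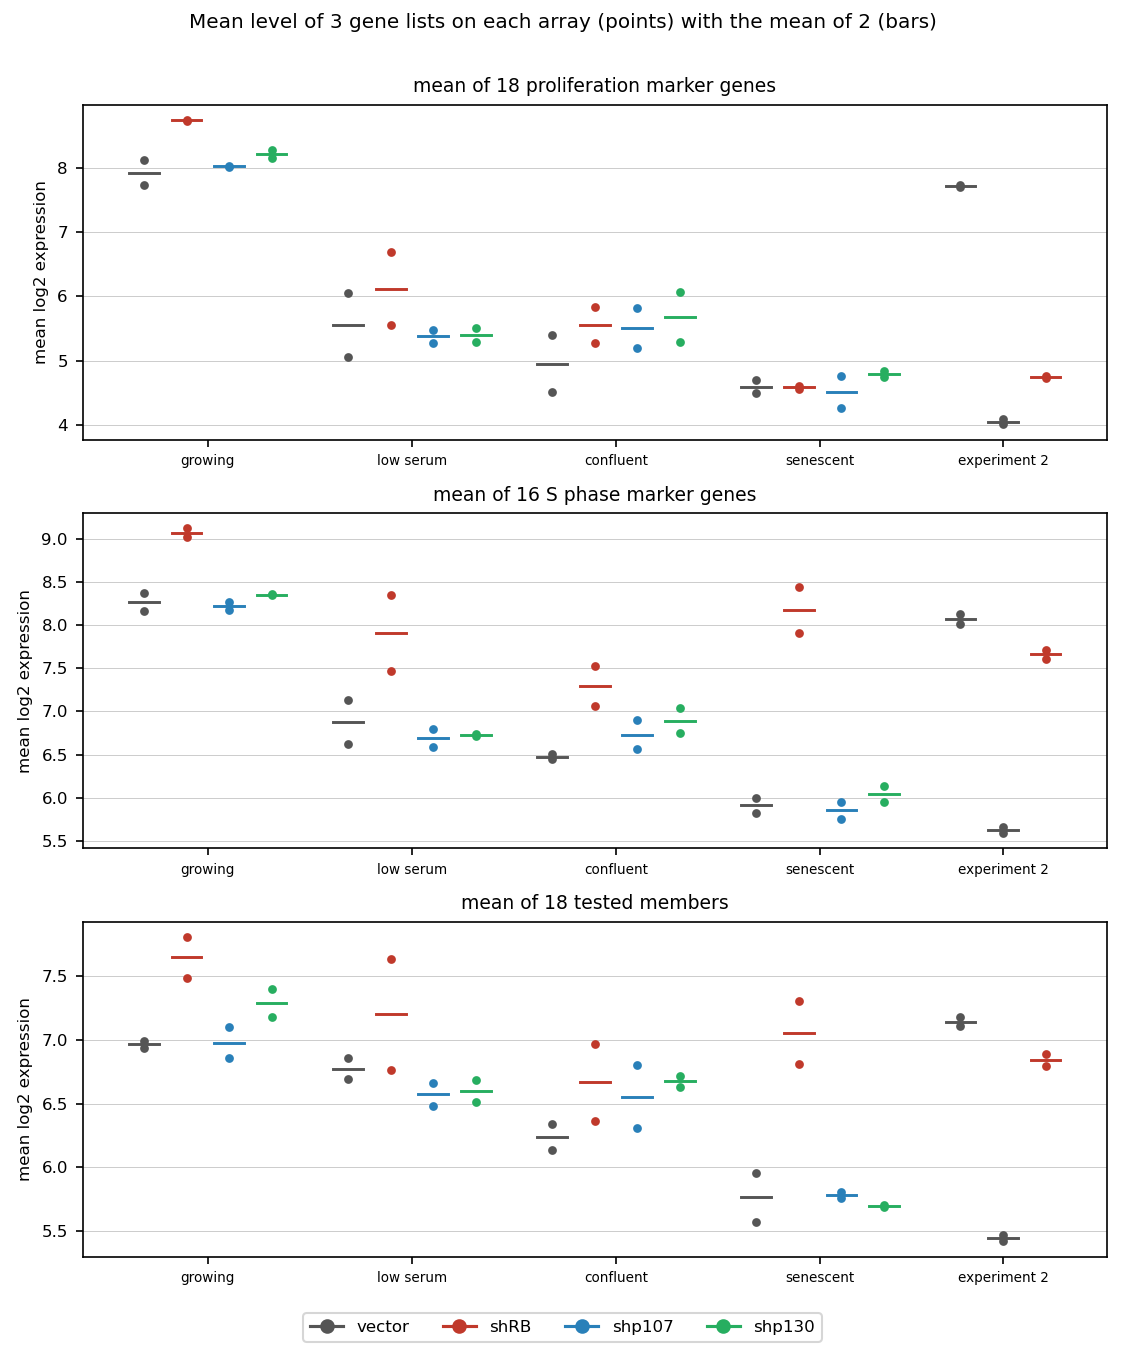
Mean log2 expression (y axis) of 18 proliferation markers (top), 16 S phase markers (middle) and the 18 tested members (bottom) on each array, grouped on the x axis by state, with experiment 2 at the right; points are arrays, bars are means of 2, colours mark the hairpin. In senescent cells of experiment 1 the shRB arrays stand above vector in the middle and bottom panels and overlap with it in the top panel.

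The members' group means in experiment 1 were also set beside the list means. As a description, with no test, since the groups share arrays' processing and the lists overlap with the cell cycle, the Pearson r over 16 groups with the proliferation mean was 0.97 for RAD51AP1 and 0.90 for BRIP1, with 0.80 and 0.82 for the S phase mean. UBE2T (0.96), FANCI (0.95) and CHEK1 (0.91) were closest to the S phase mean, with 0.81, 0.82 and 0.76 for proliferation. USP1 had 0.58 with proliferation and 0.83 with S phase, and MSH6 0.34 and 0.73. FANCL had 0.12 and 0.57, and ATM -0.76 and -0.58. The list means themselves had an r of 0.83 over the same 16 groups. Without the 4 senescent groups the r of FANCL with the S phase mean was -0.07 and that of MSH6 0.43, so these values rested on the senescent groups. Over the same 12 groups the values for proliferation and S phase were close to each other for RAD51AP1 (0.96 and 0.92), BRIP1 (0.87 and 0.90), FANCI (0.94 and 0.94) and UBE2T (0.97 and 0.97). For these genes the lists were told apart by the senescent groups. Other members kept a wider gap without them, such as RMI2 (0.28 and 0.53), MSH6 (0.21 and 0.43) and TOPBP1 (0.19 and 0.40).

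By group mean, 7 of the 18 members were highest in growing shRB cells, namely RAD51AP1, BRIP1, UBE2T, CHEK1, BARD1, RMI1 and USP1. FANCG, MSH6 and FANCL were highest in senescent shRB cells. RAD51C and RAD1 were highest in low serum vector cells, and PALB2 and ATM in confluent shp130 cells. The lowest group was a senescent one for 15 of 18, among them 8 in senescent shp130 cells. PALB2 varied least, with group means within 1.04 log2 units, and RAD51AP1 most, over 4.53.

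Other genes of recombination and the Fanconi pathway were counted from a list of 34 with a probe set, of which 23 were tested. In senescent vector cells of experiment 1, 5 fell (21.7%, against 16.2% of all genes) and 2 rose (8.70% against 9.21%), near the shares over all genes. With shRB in senescent cells 4 rose (17.4% against 5.98%). In experiment 2, 10 fell with senescence (43.5% against 20.6%), 2 rose (8.70% against 18.7%) and 8 rose with shRB (34.8% against 10.9%). RPA3, a subunit of the single-strand binding protein RPA, fell by 2.05 ± 0.37 in senescent cells (adjusted p = 0.000259) and rose by 3.0 ± 0.37 with shRB (adjusted p = 1.09e-05). PSMC3IP, a cofactor of strand exchange, fell by 0.97 ± 0.27 (adjusted p = 0.0101) and rose by 2.27 ± 0.27 with shRB (adjusted p = 7.04e-06). RPA1, the large subunit of RPA, rose with shRB by 1.51 ± 0.26 (adjusted p = 0.000465). Of 11 tested genes of the damage checkpoint other than members, 4 rose with shRB in senescent cells (36.4% against 5.98%), led by TIPIN, a replication fork protein (3.64 ± 0.39, adjusted p = 1.52e-06), which also rose in experiment 2 (2.26 ± 0.21, adjusted p = 0.000457).

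The remaining 14 members were under the filter in experiment 1: BRCA1, RAD54L, RAD54B, BLM, EXO1, FANCB, FANCC, FANCE, FANCF, FANCM, XRCC2, XRCC3, CHEK2 and CLSPN. Their medians over the 38 arrays ran from 3.07 (CHEK2, a kinase downstream of ATM) to 4.45 (FANCF, a core complex subunit), close to the array median. In a fit of all 19775 genes without the filter, none of the 14 was called in senescent against growing vector cells or with shRB in any state of experiment 1, and FANCE alone was called in low serum (0.58 ± 0.15, adjusted p = 0.0267).

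In experiment 2 the same fit called 11 of the 14 lower in senescent cells, where 11.7% of all genes were lower, and 3 higher with shRB, where 6.22% were higher. BLM, the helicase of the complex with RMI1, read 4.48 and 4.69 in growing and 2.70 and 2.58 in senescent vector cells (-1.94 ± 0.14, adjusted p = 3.63e-05). EXO1, a nuclease of end resection, read 4.62 and 4.89 against 2.88 and 2.76 (-1.94 ± 0.16, adjusted p = 6.62e-05). CLSPN, the adaptor through which ATR reaches CHEK1, read 4.51 and 4.77 in growing, 2.88 and 2.69 in senescent vector and 4.13 and 4.57 in senescent shRB cells, and was higher with shRB by 1.56 ± 0.18 (adjusted p = 0.00181). BRCA1 read 4.98 and 4.98, 3.63 and 3.54, and 4.59 and 4.43 in the same order, and was higher with shRB by 0.92 ± 0.13 (adjusted p = 0.00401). FANCB was the third called (0.54 ± 0.13, adjusted p = 0.04). In all 5 genes the senescent vector arrays lay below the growing arrays, and every value was under the filter.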

How the data were processed

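RNA from IMR90 cells was labelled as biotin cRNA (1 µg of total RNA each, per the labels). Values were used as deposited, on a log2 scale, made by the authors with GCRMA per the submitters' processing notes, 1 per probe set and array. The sources used here do not state whether the 38 arrays were normalized in 1 run. GCRMA can draw values near background together.

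Of 54613 probe sets, 41091 named 1 gene, 1801 several and 11721 none here. Where several probe sets named a gene alone, the brightest by its 38-array mean was used. The filter (a log2 value above 5, on 2 or more arrays of experiment 1) left 8511 genes.

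The experiments were fitted separately (limma 3.58.1, R 4.3.3: group means, contrasts, eBayes), with 16 and 3 residual and 4.85 and 5.35 prior degrees of freedom. P-values were adjusted by Benjamini-Hochberg within each contrast over all 8511 genes and called under 0.05. Errors are SE of a log2 change, n = 2 against 2 arrays. With an array left out, the lone array is assumed to vary like the other groups. The members and lists were chosen with earlier results of these data known. All 35 members could be named, and of the other lists the 3 largest called changes. The fit was tested on simulated data. Alternatives were a log2 minimum of 6, no filter, quantile normalization, averaged probe sets, an intensity trend, 1 fit over all arrays, a replicate block and leaving out arrays. Tables and plots used Python 3.11.15, pandas 2.3.3, numpy 2.4.6 and matplotlib 3.10.9.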

Additional observations from a re-analysis of the deposited data

Results flagged for a closer look

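The effect of the RB hairpin differed between states for several members, each by a limma test of the difference itself in experiment 1. Senescent minus growing, it was 2.92 for FANCL, 2.29 for FANCI, 2.29 for USP1 and 1.63 for MSH6. Senescent minus low serum, it was 3.21 for FANCL, 2.67 for USP1 and 1.22 for RAD1. Senescent minus confluent, it was 4.18 for FANCL, 2.24 for USP1, 2.07 for FANCI, 2.03 for MSH6, 1.54 for FANCG and 0.90 for RAD1. With each gene's probe sets averaged, MSH6 and FANCI against growing, RAD1 against low serum, and RAD1 and FANCI against confluence were not called. FANCG passed the filter only on shRB arrays. The effect in senescent cells was also larger in experiment 1 than in experiment 2 for FANCL, by 2.03, in a fit chosen after the values were seen. With 2 arrays a group, no outlier test could be made.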

How the results depend on the processing

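The counts here cover 64 member calls, from arrested against growing vector cells and from shRB against vector within a state. Calls in the other contrasts, such as the differences of the shRB effect between states, are not among them. A member under the filter of a setting gave no value there and was not counted as lost. None of the 64 reversed under any alternative run. Under the other settings 421 of 434 values kept the call, and with 1 array left out 193 of 256 did. With 1 array left out, members lower in low serum numbered 0 to 3 (2 with all arrays), members lower in senescent vector cells of experiment 1 numbered 6 to 8 (11), members higher with shRB numbered 0 to 2 at confluence (2) and 5 to 9 in senescent cells of experiment 1 (10). The confluent count was 1 with a log2 minimum of 6 and 1 with no filter. With no filter, members lower in senescent cells of experiment 2 numbered 26 of 32 (15 of 18 with it), since 14 dim members enter. CHEK1 in senescent shRB cells was not called with the minimum of 6 (adjusted p = 0.0501), no filter (0.0786), the intensity trend (0.0569) or the replicate block (0.056).

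The labels do not say whether same-numbered arrays of different groups belong together, and the main fit used no pairing. The correlation of their deviations ran from -0.376 to 0.490 over 120 pairs of groups in experiment 1 (38 above 0.1). In experiment 2 it ran from -0.136 to 0.625 over 3 pairs, so these values do not settle whether the arrays were paired. With the replicate block, 12 members were lower in senescent vector cells and 9 higher with shRB in experiment 1, and over all genes the calls for shRB went from 16 to 29 in growing cells and from 1710 to 2637 in experiment 2. Over all genes, calls for shRB in growing cells were 37 with quantile normalization and 53 in 1 fit over all arrays, and in low serum 13, 11 with averaged probe sets and 11 in 1 fit, against 7. In experiment 2 they were 694 in 1 fit.

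Quantile normalization moved the median of all genes by at most 0.161, in senescent minus low serum vector cells. For senescent minus growing vector cells it went from -0.096 to 0.026 and the share of calls that were higher from 36.2% to 48.8%. TOPBP1 was then at -0.75 (adjusted p = 0.107). Levels near background limit what can be seen of the 14 dim members and of BRIP1, RMI2 and FANCG.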

Other observations

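Other repair pathways, counted from lists chosen with earlier results known, held single genes that changed. Of 22 tested genes of base and nucleotide excision repair, 2 rose in senescent vector cells of experiment 1 (9.09%, against 9.21% of all genes tested) and 1 fell (4.55% against 16.2%), so the list as a whole did not stand above all genes there. With shRB in senescent cells 5 rose (22.7% against 5.98%). ERCC1, a subunit of the nuclease that cuts beside bulky lesions, rose by 1.86 ± 0.31 in senescent cells (limma adjusted p = 0.000117) and by 1.77 ± 0.24 in experiment 2 (adjusted p = 0.000532). FEN1, the flap nuclease of replication and base excision repair, fell by 1.73 ± 0.36 in senescent cells (adjusted p = 0.00105) and rose by 2.66 ± 0.36 with shRB (adjusted p = 3.42e-05). Of 6 tested end joining genes, 1 rose in senescent vector cells of experiment 1 (16.7% against 9.21%) and 0 fell (0.00% against 16.2%). With shRB in senescent cells 1 rose (16.7% against 5.98%) and 1 fell (16.7% against 3.77%). LIG4, the ligase of that pathway, rose by 1.32 ± 0.27 in senescent cells (adjusted p = 0.000865). It was lower with shRB there (-0.87 ± 0.27, adjusted p = 0.0434). In experiment 2 no end joining gene was called lower with shRB (0.00% against 9.24%). PRKDC, the kinase of end joining, rose with shRB by 1.06 ± 0.25 (adjusted p = 0.00718) and by 1.16 ± 0.22 in experiment 2 (adjusted p = 0.00923). Of 3 tested mismatch repair genes other than MSH6, 1 rose with shRB in senescent cells of experiment 1 (33.3% against 5.98%) and 1 in experiment 2 (33.3% against 10.9%). In both this was PMS1, which rose by 1.55 ± 0.37 (adjusted p = 0.0077) and by 1.24 ± 0.19 in experiment 2 (adjusted p = 0.0042).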
